A study of Mus musculus with 6 samples.

Results

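The genes described here are the 51 ion channel and calcium entry genes with measurable RNA in γδ thymocytes, the thymic precursors of T cells with a γδ receptor. They are the protein-coding genes whose names begin with the stems of the potassium (*Kcn*), voltage-gated calcium (*Cacn*) and sodium (*Scn*) channels, the transient receptor potential channels (*Trpa*, *Trpc*, *Trpm*, *Trpv*), *Orai*, *Stim*, *Itpr*, *Ryr* and *P2rx*, and that reached a CPM of 1 (CPM, the gene's reads scaled to a common library total) in 3 or more of 6 libraries. Of 176 protein-coding genes with such names among the 41195 genes counted, 51 met this level. The level was therefore used to choose them, and levels are given below as a description. The first group was *Rag1Cre-Nfatc1fl/fl* mice, in which Cre recombinase is driven by the *Rag1* locus, active in early thymocytes, and removes exon 3 from both floxed *Nfatc1* alleles (NFATc1 is a calcium-regulated transcription factor). The second group was *Nfatc1fl/fl* control mice, which carry the floxed alleles without Cre. Animals were a few weeks old, matched for age and sex, and on a C57/B6 background. Each group had 3 libraries of poly(A) RNA from γδ thymocytes enriched with a magnetic TCRγ/δ kit, so that other cells can remain. The comparison addressed whether the γδ thymocytes of *Rag1Cre-Nfatc1fl/fl* mice differ in their gene expression.

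NFAT proteins are switched on by calcium. When the T cell receptor is engaged, phospholipase C makes inositol trisphosphate (IP3), IP3 receptors release calcium from the endoplasmic reticulum, STIM proteins sense the emptied store and open ORAI pores in the plasma membrane, and the calcium that enters activates calcineurin, which dephosphorylates NFAT. Potassium channels keep the membrane potential negative and so maintain the driving force for calcium entry, with Kv1.3 (*Kcna3*) and KCa3.1 (*Kcnn4*) as the best known ones in T cells. The names hold with few exceptions: *Trpc4ap* encodes a protein that binds a TRP channel and is not itself a channel, and the *Cacnb*, *Cacna2d*, *Kcnab*, *Kcnip*, *Kcnmb* and *Scn4b* genes encode auxiliary subunits without a pore.

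The promoters of the 3 members with the highest log2 fold changes (*Scn8a*, *Kcnf1*, *Trpm6*) and of the 3 called lower (*Kcna3*, *Cacna2d2*, *Scn4b*) are shown because the results turn on these genes. Each line gives the 250 bases upstream of the RefSeq start (GRCm38.p6), 5′ to 3′ on the gene's strand, with the NFAT core GGAAA on either strand in capitals. For *Scn8a* the start nearest to that of the gene model in the tables was taken.
*Scn8a* (chr15:100870395-100870644, plus strand): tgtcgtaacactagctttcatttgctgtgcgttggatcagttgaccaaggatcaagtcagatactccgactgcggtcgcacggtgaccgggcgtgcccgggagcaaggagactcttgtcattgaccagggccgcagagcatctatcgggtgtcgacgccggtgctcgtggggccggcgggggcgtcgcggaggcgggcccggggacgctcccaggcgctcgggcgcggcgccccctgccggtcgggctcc
*Kcnf1* (chr12:17176889-17177138, minus strand): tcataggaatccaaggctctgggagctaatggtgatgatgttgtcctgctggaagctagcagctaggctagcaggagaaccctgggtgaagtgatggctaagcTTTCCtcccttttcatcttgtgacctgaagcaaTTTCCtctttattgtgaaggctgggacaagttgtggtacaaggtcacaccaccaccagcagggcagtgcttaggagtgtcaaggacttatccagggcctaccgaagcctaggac
*Trpm6* (chr19:18749480-18749729, plus strand): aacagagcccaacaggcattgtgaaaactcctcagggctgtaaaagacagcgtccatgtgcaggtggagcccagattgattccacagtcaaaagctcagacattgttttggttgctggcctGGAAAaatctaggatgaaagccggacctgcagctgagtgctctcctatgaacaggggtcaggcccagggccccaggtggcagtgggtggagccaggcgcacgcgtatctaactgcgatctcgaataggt
*Kcna3* (chr3:107035912-107036161, plus strand): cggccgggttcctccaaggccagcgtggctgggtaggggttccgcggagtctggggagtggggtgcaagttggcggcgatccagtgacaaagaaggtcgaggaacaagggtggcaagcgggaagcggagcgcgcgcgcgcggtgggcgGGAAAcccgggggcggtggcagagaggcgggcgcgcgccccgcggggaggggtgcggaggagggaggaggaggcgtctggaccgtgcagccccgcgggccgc
*Cacna2d2* (chr9:107399630-107399879, plus strand): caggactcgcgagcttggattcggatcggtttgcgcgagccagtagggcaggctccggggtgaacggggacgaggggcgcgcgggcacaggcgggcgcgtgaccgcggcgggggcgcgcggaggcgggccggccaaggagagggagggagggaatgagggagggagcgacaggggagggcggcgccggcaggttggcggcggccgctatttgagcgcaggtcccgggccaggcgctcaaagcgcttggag
*Scn4b* (chr9:45138374-45138623, plus strand): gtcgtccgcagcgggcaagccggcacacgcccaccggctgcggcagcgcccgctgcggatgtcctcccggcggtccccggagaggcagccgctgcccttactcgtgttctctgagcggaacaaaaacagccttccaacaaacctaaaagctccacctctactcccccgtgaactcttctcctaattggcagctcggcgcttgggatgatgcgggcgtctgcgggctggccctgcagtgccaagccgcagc
*Kcnf1* held 2 NFAT cores, *Trpm6* and *Kcna3* 1 each, and *Scn8a*, *Cacna2d2* and *Scn4b* 0. The RefSeq starts of *Scn8a*, *Cacna2d2* and *Scn4b* lie 787, 268 and 229 bases inside the gene models of the tables. Their printed stretches therefore lie wholly (*Scn8a*, *Cacna2d2*) or mostly (*Scn4b*) within these models, not upstream of them. RefSeq promoters were matched for 40 of the 51 members, some with several starts. GGAAA on either strand lay in 43.4% of their 53 promoters and in 55.6% of all 32851 promoters of the same length. The AP-1 letters TGANTCA lay in 1.89% of the member promoters and 6.75% of all, CANNTG (E-box) in 62.3% of the member promoters and 66.2% of all, and TATAAA in 3.77% and 12.4% likewise. A TGANTCA can share bases with a CANNTG, and a match describes letters only.

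The 6 libraries held 20734771 to 22638531 gene reads, of which 97.5% to 98.1% lay in exons. Whether the libraries of a group stem from different mice is not in the labels, and the p-values therefore reflect the spread among these 6 libraries alone, possibly a technical one. The targeted gene *Nfatc1* had 7987, 9603 and 5872 reads in the libraries labelled *Rag1Cre-Nfatc1fl/fl*, against 4581, 4736 and 4612 in control libraries, and its log2 fold change was 0.87 (SE 0.128, adjusted p = 0.0028, edgeR). Its adjusted p was 0.0209, 0.0167 and 0.0199 without control replicate 1, 2 or 3. This goes against a loss of the RNA, but the counts cover the whole gene and the deletion removes exon 3 alone, so neither deletion nor labels can be checked with them, and every direction below is that of the labels. Of 10 genes listed as γδ T cell markers 7 were among the genes counted, without *Trgc1*, *Trgc2* and *Trgc4*. The summed level of the 7 was 2874 to 3233 CPM in the libraries labelled *Rag1Cre-Nfatc1fl/fl* and 2820 to 3014 CPM in control libraries. Of the 7, *Trdc*, the constant region of the δ chain, was called lower (log2 fold change -0.8, adjusted p = 0.00352, edgeR), and 6 did not pass. It had 115 ± 18.5 CPM in the libraries labelled *Rag1Cre-Nfatc1fl/fl* and 200 ± 6.45 CPM in control libraries (SD, n = 3 each). Of its reads 0% were counted in exons, so whether they stem from mature *Trdc* RNA cannot be told. The other 6 (*Cd3e*, *Cd3d*, *Cd3g*, *Cd247*, *Lck* and *Cd2*) make up most of the sum and are expressed in αβ T cells too. The sum therefore speaks neither for each marker nor for the purity of the γδ cells. Replicate 3 labelled *Rag1Cre-Nfatc1fl/fl* stood apart from replicates 1 and 2, with a chi-square per degree of freedom of 71 and 63.7 against 7.9 between those replicates. Values of the libraries are given below in the order of their replicate numbers, as CPM with TMM scaling (a scaling of library sizes by the trimmed mean of log ratios).

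Per length, *Kcnab2*, *Kcnn4* and *Trpv2* had the highest mean levels of the set. In TPM, which is scaled by exon length and library total and so compares genes, 15 members averaged 10 or more over the 6 libraries (1 of them 100 or more), 20 between 1 and 10, and 16 under 1. *Kcnab2*, an auxiliary β subunit of Kv channels, stood at 147 ± 33 TPM in the libraries labelled *Rag1Cre-Nfatc1fl/fl* and 167 ± 5.44 TPM in control libraries (SD, n = 3 each). *Kcnn4* followed at 88.8 ± 9.23 TPM in the libraries labelled *Rag1Cre-Nfatc1fl/fl* and 106 ± 4.55 TPM in control libraries, and *Trpv2*, a TRP cation channel of immune cells, at 88.6 ± 11.7 TPM in the libraries labelled *Rag1Cre-Nfatc1fl/fl* and 86.5 ± 6.55 TPM in control libraries. *Trpc4ap* averaged 64.1 TPM over all libraries, *Kcna3* 61.3, *Orai2* 44.2, *P2rx7* 43.6, *Stim1* 40.8, *Orai3* 39 and *Orai1* 32.7. *Kcnn4* and *Trpv2* did not differ beyond their spread in the libraries labelled *Rag1Cre-Nfatc1fl/fl*, but did in control libraries. *P2rx7* stood above *Orai2* and *Stim1* in control libraries (57.4 ± 1.95, 49.8 ± 1.34 and 45.7 ± 3.13 TPM), whereas the 3 did not differ beyond their spread in the libraries labelled *Rag1Cre-Nfatc1fl/fl* (29.7 ± 9.55, 38.6 ± 12.2 and 36 ± 4.5 TPM). The summed TPM of all members was 872, 860 and 625 in the libraries labelled *Rag1Cre-Nfatc1fl/fl* and 844, 878 and 887 in control libraries, lowest in replicate 3 labelled *Rag1Cre-Nfatc1fl/fl*.

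All 51 members could be tested, and 11 passed the test of the genotypes (edgeR's quasi-likelihood test, adjusted p under 0.01 over all 13185 tested genes and a log2 fold change beyond 0.5 either way). In the libraries labelled *Rag1Cre-Nfatc1fl/fl*, 8 of these were higher and 3 were lower, and 40 members did not pass. The called share was 21.6% of the members and 9.98% of all tested genes, of which 6.47% were higher and 3.51% lower (853 and 463 genes; 700 and 578 with library size only, 1206 and 321 with the trend with exon length removed). The members' median log2 fold change was 0.27, and that of all tested genes -0.01. Members were chosen by level in any 3 libraries, and 4 of them (*Scn8a*, *Kcnk7*, *Cacna1d*, *Ryr3*) reached 1 CPM only in the libraries labelled *Rag1Cre-Nfatc1fl/fl*, so that they had to differ. Among the other 47 members 7 were higher and 3 lower, 21.3% in all. Unadjusted p-values were under 0.05 in 27 of the 51. The CPM of the groups did not overlap in 28 members, 19 higher and 9 lower, and in 46.7% of all tested genes (23.3% higher, 23.4% lower). In bulk RNA, a change in the number of cells of a type and a change in RNA per cell cannot be told apart. Without control replicate 1, 2 or 3 the count of called members was 6 each time, and without replicate 1, 2 or 3 labelled *Rag1Cre-Nfatc1fl/fl* it was 8, 8 and 16. *Kcnf1*, *Trpm6* and *Scn4b* were called in each of the 18 other settings tried. So was *Scn8a*, a difference that its choice by level favours.

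**Figure D1:**
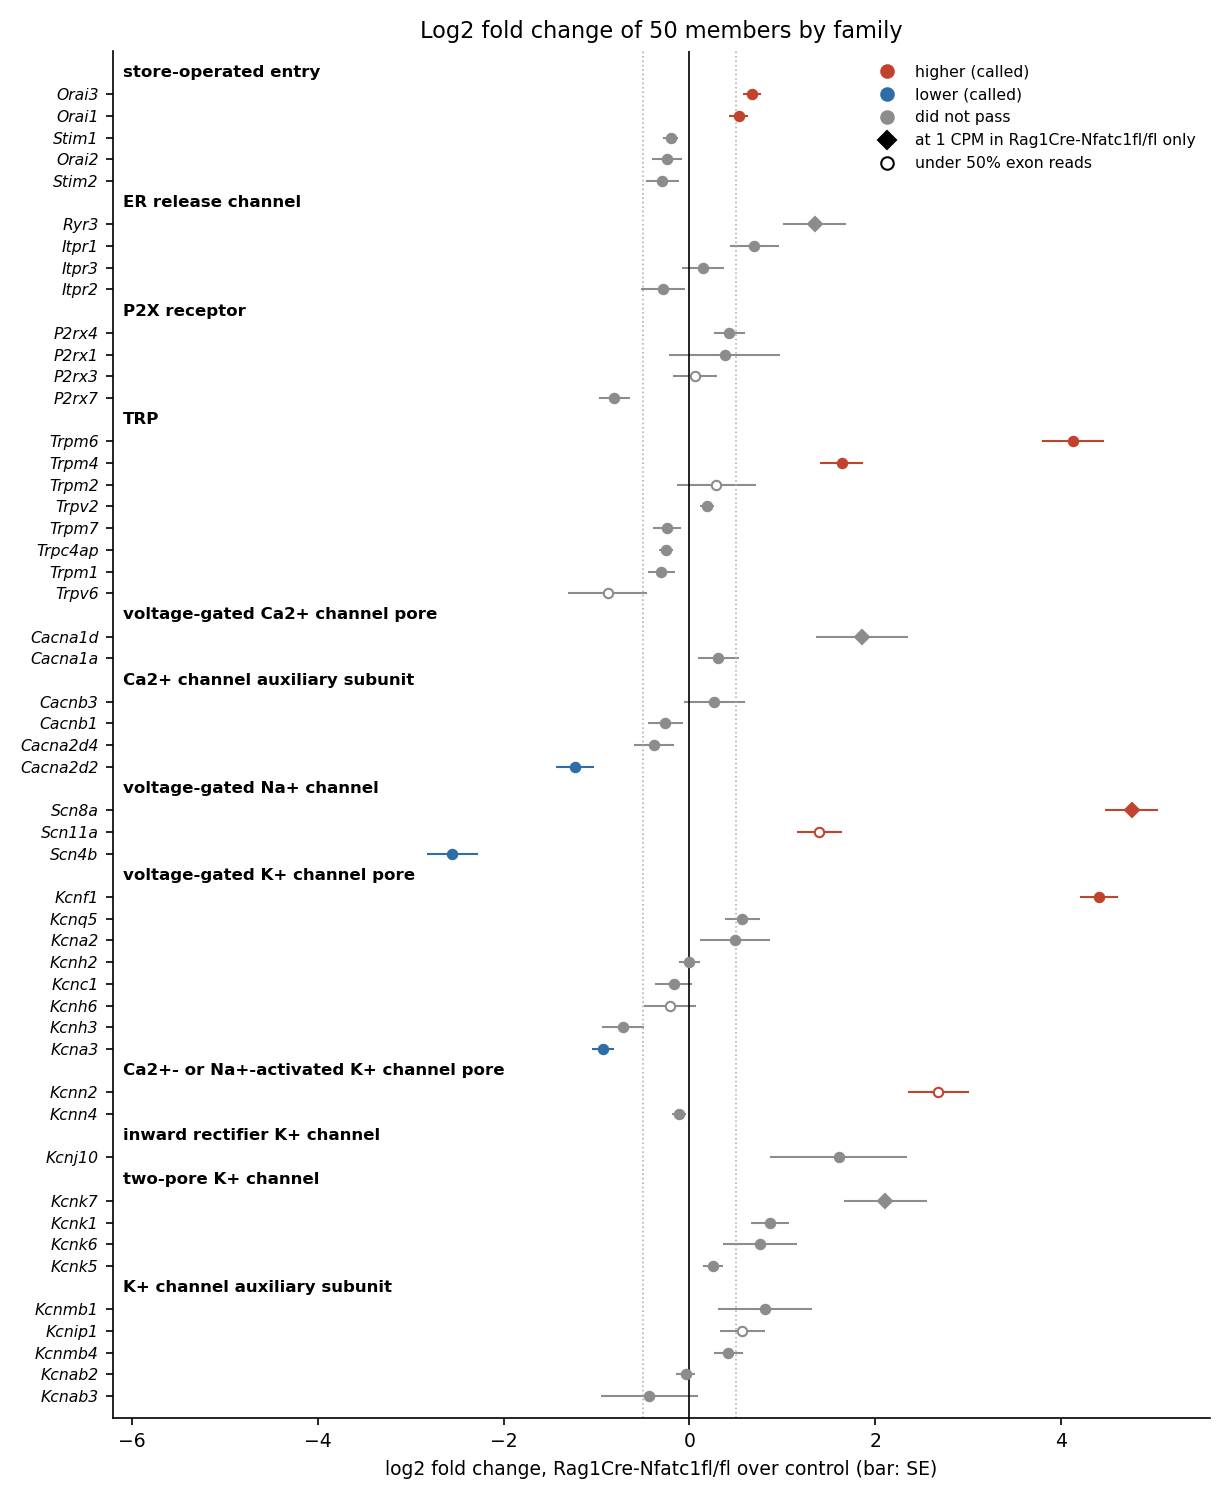
Log2 fold changes, labelled *Rag1Cre-Nfatc1fl/fl* over control (x axis, bars are SE), of 50 members in 12 families, with called genes in red (8 higher) and blue (3 lower), diamonds for the 4 members at 1 CPM only in the libraries labelled *Rag1Cre-Nfatc1fl/fl* and open points for members with under 50% exon reads. *Scn8a* (4.76), *Kcnf1* (4.41) and *Trpm6* (4.13) lie far to the right of the rest and *Scn4b* (-2.55) to the left.

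Of the store-operated entry genes, *Orai1* and *Orai3* were higher in the libraries labelled *Rag1Cre-Nfatc1fl/fl*, while *Orai2*, *Stim1* and *Stim2* did not pass. *Orai1*, the main pore of the calcium release-activated current in T cells (GRCm38 chromosome 5, 123015074 to 123030456, plus strand), had 34.1, 36.6 and 37.2 CPM in the libraries labelled *Rag1Cre-Nfatc1fl/fl*, against 22.3, 26.8 and 25.7 CPM in control libraries. Its log2 fold change was 0.53 (SE 0.1, adjusted p = 0.00827, edgeR). *Orai3*, a pore subunit known from ORAI heteromers (chromosome 7, 127769815 to 127775150, plus strand), had 37, 42.5 and 43.6 CPM in the libraries labelled *Rag1Cre-Nfatc1fl/fl*, against 26, 24.5 and 27.2 CPM in control libraries (log2 fold change 0.67, SE 0.098, adjusted p = 0.0028). In both genes every library labelled *Rag1Cre-Nfatc1fl/fl* lay above every control library. *Orai2*, which forms pores with a smaller current, had 108, 111 and 72.5 CPM in the libraries labelled *Rag1Cre-Nfatc1fl/fl*, against 120, 114 and 111 CPM in control libraries (-0.24, adjusted p = 0.3), and only replicate 3 lay clearly below the controls. *Stim1*, the main calcium sensor of the store, had 158, 157 and 155 CPM in the libraries labelled *Rag1Cre-Nfatc1fl/fl*, against 174, 175 and 191 CPM in control libraries. Its groups did not overlap, but the log2 fold change of -0.2 did not pass (adjusted p = 0.106). *Stim2*, the sensor that responds to smaller losses of store calcium, had 32.3, 29.5 and 19.9 CPM in the libraries labelled *Rag1Cre-Nfatc1fl/fl*, against 34.6, 35.1 and 30.3 CPM in control libraries (-0.29, adjusted p = 0.259).

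In TPM, the makeup of the ORAI RNA differed between the groups, as a description without a test. Of the summed TPM of the 3 genes, *Orai1* took 30.7% ± 2.21 in the libraries labelled *Rag1Cre-Nfatc1fl/fl* and 25.7% ± 2.25 in control libraries, *Orai2* 31.2% ± 5.89 in the libraries labelled *Rag1Cre-Nfatc1fl/fl* and 45.1% ± 2.07 in control libraries, and *Orai3* 38.1% ± 3.83 in the libraries labelled *Rag1Cre-Nfatc1fl/fl* and 29.2% ± 1.48 in control libraries (SD, n = 3 each). None of these shares overlapped between the groups, but they add up to the whole and so do not move independently. The *Orai2* share was 35.4%, 33.8% and 24.5% in the libraries labelled *Rag1Cre-Nfatc1fl/fl*, lowest in replicate 3. In that library long genes were lower over the whole table, and the part of this in the shares was not tested. *Orai3* was the highest per length in replicates 2 and 3 labelled *Rag1Cre-Nfatc1fl/fl*, *Orai2* in replicate 1 and in all 3 controls. *Stim1* took 74.8% ± 4.62 of the STIM TPM in the libraries labelled *Rag1Cre-Nfatc1fl/fl* and 73.4% ± 3 in control libraries, with overlap. The summed ORAI TPM was 129, 135 and 100 in the libraries labelled *Rag1Cre-Nfatc1fl/fl* and 106, 114 and 112 in control libraries, so the groups overlapped in the sum. The calls of *Orai1* and *Orai3* were lost without single libraries. The adjusted p of *Orai1* was 0.0394, 0.0261 and 0.0362 without control replicate 1, 2 or 3, and 0.0171 and 0.0336 without replicate 1 or 2 labelled *Rag1Cre-Nfatc1fl/fl*, and its log2 fold change was 0.43 (adjusted p = 0.0223) when only library size was used, a scaling that moved the median of all tested genes to -0.107, against -0.00694 with TMM. That of *Orai3* was 0.019, 0.021 and 0.014 without control replicate 1, 2 or 3, and 0.0155 without replicate 2 labelled *Rag1Cre-Nfatc1fl/fl*. On log2 TPM, the measure of the shares, neither gene was called (limma). At pseudocounts of 1 and 0.1, *Orai1* had log2 fold changes of 0.37 (adjusted p = 0.0881) and 0.38 (adjusted p = 0.0902). Those of *Orai3* were 0.49 (adjusted p = 0.0193) and 0.51 (adjusted p = 0.0201).

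**Figure D2:**
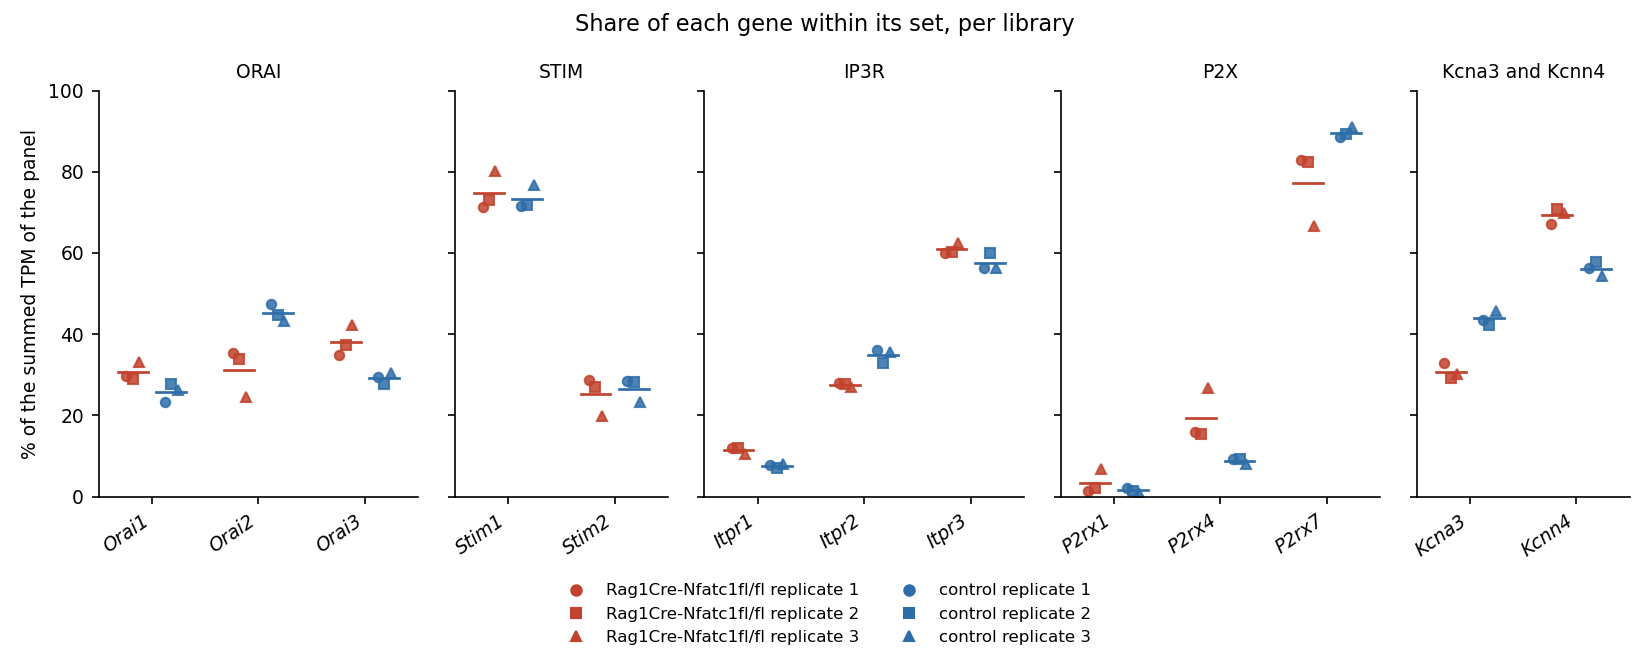
Share of each gene (y axis, % of the summed TPM of the panel) in 5 sets, per library, with means as lines; red, labelled *Rag1Cre-Nfatc1fl/fl*; blue, control. *Orai3* and *Orai1* sit higher and *Orai2* lower in red, the STIM shares overlap, *Itpr1* sits at 11.5% in red and 7.64% in blue, and *Kcna3* at 30.7% and 43.9%.

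None of the 4 calcium release channels of the endoplasmic reticulum passed the test on all gene reads (edgeR; 2 had an unadjusted p under 0.05, and DESeq2 called 0). *Itpr1*, encoding the IP3 receptor of type 1, had 47.9, 49.7 and 23.5 CPM in the libraries labelled *Rag1Cre-Nfatc1fl/fl*, against 28.4, 23.6 and 22.4 CPM in control libraries. Replicates 1 and 2 labelled *Rag1Cre-Nfatc1fl/fl* lay above all controls and replicate 3 among them, and the log2 fold change of 0.7 did not pass (SE 0.262, adjusted p = 0.0893, edgeR). Without replicate 3 it was 0.99 (adjusted p = 0.000129). *Itpr2* had 90.1, 93 and 48.2 CPM in the libraries labelled *Rag1Cre-Nfatc1fl/fl*, against 107, 91.7 and 82.1 CPM in control libraries (-0.28, adjusted p = 0.419). *Itpr3*, the most abundant of the 3 per length, had 115, 120 and 65.2 CPM in the libraries labelled *Rag1Cre-Nfatc1fl/fl*, against 97.6, 97.8 and 75.2 CPM in control libraries (0.15, adjusted p = 0.659). Within the libraries labelled *Rag1Cre-Nfatc1fl/fl*, all 3 genes were lowest in replicate 3, whereas their proportions within a library varied little: *Itpr1* took 12%, 12% and 10.6% of the summed TPM in the libraries labelled *Rag1Cre-Nfatc1fl/fl* and 7.77%, 7.11% and 8.04% in control libraries. *Itpr2* took 27.5% ± 0.465 in the libraries labelled *Rag1Cre-Nfatc1fl/fl* and 34.9% ± 1.67 in control libraries, and *Itpr3* took 61% ± 1.28 in the libraries labelled *Rag1Cre-Nfatc1fl/fl* and 57.4% ± 2.11 in control libraries (SD, n = 3 each). None of the 3 shares overlapped between the groups, but *Itpr3* only just, with 60.1% in replicate 1 labelled *Rag1Cre-Nfatc1fl/fl* and 59.9% in control replicate 2. The 3 shares add up to the whole, so they do not move independently. The ryanodine receptor gene *Ryr3* was near the level limit, with 1.15, 1.73 and 1.16 CPM in the libraries labelled *Rag1Cre-Nfatc1fl/fl*, against 0.43, 0.66 and 0.49 CPM in control libraries, a difference that its choice by level favours (1.35, adjusted p = 0.0244). Of its reads 66.9% lay in exons, and it overlaps *Aven* on the other strand. On exon reads alone *Ryr3* passed (2.47, adjusted p = 0.00675, edgeR), with 68 exon reads in the libraries labelled *Rag1Cre-Nfatc1fl/fl* and 13 in control libraries. The choice by level favours this difference too.

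The 4 ATP-gated P2X receptors gave no call (edgeR; 2 had an unadjusted p under 0.05, and DESeq2 called 1, *P2rx7*). *P2rx7*, which opens at high extracellular ATP and is abundant on several T cell subsets, had 76.2, 90.7 and 55.7 CPM in the libraries labelled *Rag1Cre-Nfatc1fl/fl*, against 140, 123 and 128 CPM in control libraries. Each library labelled *Rag1Cre-Nfatc1fl/fl* lay below each control, but the log2 fold change of -0.81 missed the threshold (SE 0.167, adjusted p = 0.0115, edgeR). It was past the threshold in 8 of the other settings, among them DESeq2 (adjusted p = 8.66e-05), the fit without replicate 2 labelled *Rag1Cre-Nfatc1fl/fl* (-0.98, adjusted p = 0.00873) and that without replicate 3 (-0.63, adjusted p = 0.000784). *P2rx4*, its neighbour on chromosome 5, had 17.9, 20.6 and 27.1 CPM in the libraries labelled *Rag1Cre-Nfatc1fl/fl*, against 17.8, 16 and 14.7 CPM in control libraries (0.43, adjusted p = 0.0928). Of the summed TPM of *P2rx1*, *P2rx4* and *P2rx7*, *P2rx7* took 77.3% ± 9.3 in the libraries labelled *Rag1Cre-Nfatc1fl/fl* and 89.6% ± 1.28 in control libraries, and *P2rx4* 19.3% ± 6.38 in the libraries labelled *Rag1Cre-Nfatc1fl/fl* and 8.86% ± 0.67 in control libraries (SD, n = 3 each), without overlap. *P2rx1* had 0.551, 1.05 and 2.48 CPM in the libraries labelled *Rag1Cre-Nfatc1fl/fl*, against 1.64, 0.88 and 0.579 CPM in control libraries, and its log2 fold change of 0.38 (adjusted p = 0.673) turned to -0.36 without replicate 3 labelled *Rag1Cre-Nfatc1fl/fl*. The reads assigned to *P2rx3* were almost all intronic, 1.24% in exons, and the gene overlaps *Ssrp1* on the other strand, so its mean of 1.88 CPM in the libraries labelled *Rag1Cre-Nfatc1fl/fl* and 1.8 CPM in control libraries cannot be taken as mature *P2rx3* RNA.

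Of the 8 genes with TRP names, *Trpm6* and *Trpm4* were higher in the libraries labelled *Rag1Cre-Nfatc1fl/fl* and 6 did not pass. *Trpm6* encodes a channel with its own kinase domain that carries magnesium (chromosome 19, 18749983 to 18892510, plus strand). It had 25.7, 36.5 and 17.8 CPM in the libraries labelled *Rag1Cre-Nfatc1fl/fl*, against 1.29, 2.11 and 1.16 CPM in control libraries. The lowest of the first group was thus far above the highest control, with a log2 fold change of 4.13 (17.5-fold, SE 0.332, adjusted p = 0.000183, edgeR). *Trpm4*, a calcium-activated channel for monovalent cations (chromosome 7, 45302632 to 45333780, minus strand), had 8.95, 10 and 14.5 CPM in the libraries labelled *Rag1Cre-Nfatc1fl/fl*, against 4.26, 2.95 and 3.47 CPM in control libraries (log2 fold change 1.64, SE 0.232, adjusted p = 0.00235). Its adjusted p was 0.0131 without control replicate 2 and 0.0156 without control replicate 3. Its highest library in each group, replicate 3 labelled *Rag1Cre-Nfatc1fl/fl* and control replicate 1, was also the highest in macrophage and dendritic cell markers (summed level 104, 65.6 and 319 CPM in the libraries labelled *Rag1Cre-Nfatc1fl/fl*, against 113, 37.2 and 28.5 CPM in control libraries). *Trpm4* stayed called when either was left out (log2 fold change 1.42, adjusted p = 0.000486 without the first, and 1.79, adjusted p = 0.00919 without the second, edgeR). Leaving out 1 library does not remove such cells from the others, and their part in the *Trpm4* values was not tested. *Trpm7*, the close relative of *Trpm6* and the ubiquitous magnesium channel-kinase, had 69.8, 69.4 and 47.5 CPM in the libraries labelled *Rag1Cre-Nfatc1fl/fl*, against 72.4, 69.2 and 78.4 CPM in control libraries (-0.24, adjusted p = 0.291). *Trpv2* had 168, 170 and 165 CPM in the libraries labelled *Rag1Cre-Nfatc1fl/fl*, against 139, 150 and 152 CPM in control libraries, above all controls but with a log2 fold change of 0.19 only (adjusted p = 0.122). *Trpc4ap* had 204, 203 and 198 CPM in the libraries labelled *Rag1Cre-Nfatc1fl/fl*, against 232, 239 and 246 CPM in control libraries (-0.25, adjusted p = 0.0488). *Trpm1*, *Trpm2* and *Trpv6* had log2 fold changes of -0.3, 0.29 and -0.88, with adjusted p-values of 0.178, 0.655 and 0.171.

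All 3 voltage-gated sodium channel genes were called, in both directions. *Scn8a*, the pore subunit Nav1.6 of neurons (chromosome 15, 100869858 to 101045938, plus strand), had 12, 12.8 and 12.5 CPM in the libraries labelled *Rag1Cre-Nfatc1fl/fl*, against 0.646, 0.22 and 0.49 CPM in control libraries. These are 262, 282 and 236 reads in the libraries labelled *Rag1Cre-Nfatc1fl/fl*, against 15, 5 and 11 reads in control libraries, and the log2 fold change was 4.76 (SE 0.287, adjusted p = 5.08e-05, edgeR), the highest of the members. As the gene entered the set only through the libraries labelled *Rag1Cre-Nfatc1fl/fl*, its difference is a description. *Scn11a*, the pore subunit Nav1.9 known from sensory neurons (chromosome 9, 119753759 to 119825456, minus strand), had 4.82, 6.79 and 4.22 CPM in the libraries labelled *Rag1Cre-Nfatc1fl/fl*, against 1.85, 2.37 and 1.78 CPM in control libraries (log2 fold change 1.4, SE 0.246, adjusted p = 0.00597). Only 43.1% of its reads lay in exons, and its adjusted p was 0.011 on exon reads and 0.0332, 0.0173, 0.0334, 0.0138 and 0.0221 without control replicate 1, 2 or 3 and without replicate 1 or 2 labelled *Rag1Cre-Nfatc1fl/fl*. *Scn4b*, the auxiliary β4 subunit (chromosome 9, 45138395 to 45154152, plus strand), had 1.74, 1.14 and 0.792 CPM in the libraries labelled *Rag1Cre-Nfatc1fl/fl*, against 6.84, 7.43 and 7.44 CPM in control libraries. Its log2 fold change was -2.55 (SE 0.271, adjusted p = 0.000672), the lowest of the members, and no library of one group reached the other. Of 8 neuron markers 3 (*Snap25*, *Nefl*, *Gap43*) had no read in any library, 2 were tested, and 1 of these, *Map2*, a microtubule-associated protein, was higher (20.1 ± 7.68 CPM in the libraries labelled *Rag1Cre-Nfatc1fl/fl* and 1.4 ± 0.358 CPM in control libraries, SD, n = 3 each). The other tested marker, *Tubb3*, had 9.19 ± 0.356 CPM in the libraries labelled *Rag1Cre-Nfatc1fl/fl* and 10.2 ± 0.741 CPM in control libraries (SD, n = 3 each). The summed level of the list was 22.1 to 37.8 CPM in the libraries labelled *Rag1Cre-Nfatc1fl/fl* and 10.8 to 13 CPM in control libraries. Without *Map2*, the marker called higher, it was 9.18 to 9.97 CPM in the libraries labelled *Rag1Cre-Nfatc1fl/fl* and 9.51 to 11.2 CPM in control libraries. This remainder is almost all *Tubb3* and so adds little to the values of that gene.

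Of the 9 voltage-gated potassium channel pore genes, *Kcnf1* was higher, *Kcna3* lower, and 7 did not pass. *Kcnf1*, a Kv5.1 subunit that is electrically silent on its own (chromosome 12, 17172100 to 17176888, minus strand), had 66, 66.8 and 54.4 CPM in the libraries labelled *Rag1Cre-Nfatc1fl/fl*, against 2.02, 3.65 and 3.16 CPM in control libraries. The 1439, 1467 and 1031 reads in the libraries labelled *Rag1Cre-Nfatc1fl/fl* compare with 47, 83 and 71 in control libraries, a log2 fold change of 4.41 (21.2-fold, SE 0.204, adjusted p = 2.08e-05, edgeR). At 31.7 ± 6.89 TPM in the libraries labelled *Rag1Cre-Nfatc1fl/fl*, against 1.65 ± 0.512 TPM in control libraries (SD, n = 3 each), *Kcnf1* came close to *Orai1* in level per length in the first group only. *Kcna3*, the Kv1.3 channel of T cells (chromosome 3, 107036169 to 107038070, plus strand), had 34, 28.6 and 30.7 CPM in the libraries labelled *Rag1Cre-Nfatc1fl/fl*, against 59, 52.3 and 66.2 CPM in control libraries. The log2 fold change was -0.93 (SE 0.116, adjusted p = 0.00136), and without control replicate 1 the adjusted p stood at the threshold (0.01). The antisense gene *Gm27008* overlaps *Kcna3*, had 0.768% of its reads in its own exons and a log2 fold change of -0.84, and its reads cannot be told from those of *Kcna3*. *Kcna2*, which lies next to *Kcna3* on chromosome 3, did not follow it (0.49, adjusted p = 0.374). *Kcnh2*, *Kcnc1*, *Kcnq5*, *Kcnh3* and *Kcnh6* had log2 fold changes between -0.71 and 0.57, and of these *Kcnq5* (higher) and *Kcnh3* (lower) did not overlap between the groups.

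The calcium-activated channels went apart. *Kcnn4*, the KCa3.1 channel that works beside Kv1.3 in T cells, had 190, 192 and 196 CPM in the libraries labelled *Rag1Cre-Nfatc1fl/fl*, against 211, 196 and 216 CPM in control libraries. This difference of -0.11 did not pass (adjusted p = 0.343, edgeR), and the highest library labelled *Rag1Cre-Nfatc1fl/fl* and the lowest control were both at 196 CPM. Of the summed TPM of *Kcna3* and *Kcnn4*, *Kcna3* took 32.8%, 29.1% and 30.2% in the libraries labelled *Rag1Cre-Nfatc1fl/fl* and 43.6%, 42.3% and 45.7% in control libraries. *Kcnn2*, the small-conductance channel SK2 (chromosome 18, 45268860 to 45686024, plus strand), had 7.25, 10.3 and 5.97 CPM in the libraries labelled *Rag1Cre-Nfatc1fl/fl*, against 1.59, 1.36 and 0.712 CPM in control libraries (log2 fold change 2.68, SE 0.332, adjusted p = 0.00133). Its exons held 201 reads (40.4%) in the libraries labelled *Rag1Cre-Nfatc1fl/fl* and 10 reads (11.9%) in control libraries, and 78.2% of its reads were unique. On exon reads alone the log2 fold change was 4.38 (adjusted p = 0.00118). The antisense gene *A330093E20Rik* overlaps *Kcnn2* and was higher too, with 2.62, 3.32 and 3.8 CPM in the libraries labelled *Rag1Cre-Nfatc1fl/fl*, against 0, 0.044 and 0.0445 CPM in control libraries, and the reads of both genes cannot be told apart.

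**Figure D3:**
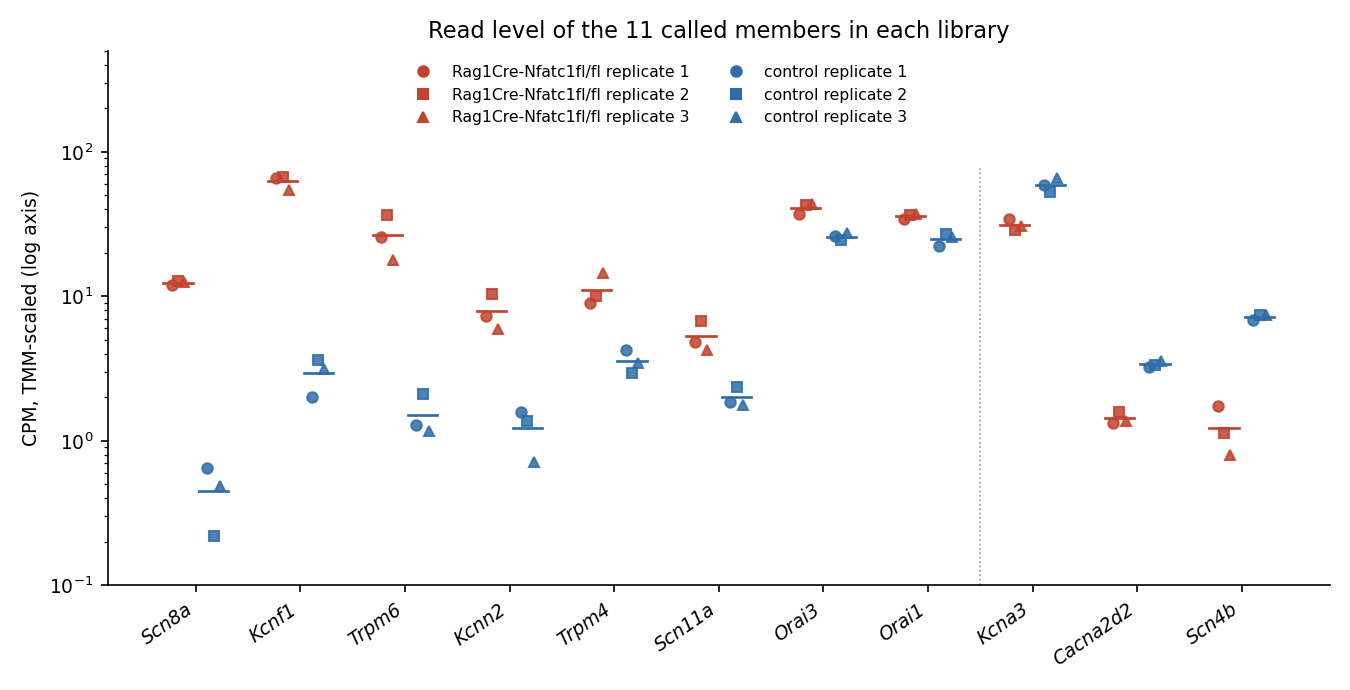
TMM-scaled CPM (y axis, log) of the 11 called members in each of 6 libraries, with lines at the group means; red, labelled *Rag1Cre-Nfatc1fl/fl*; blue, control; higher genes left and lower genes right of the dotted line. In none of the 11, chosen by a test on these same values, do the groups overlap, nor do they in 46.7% of all tested genes. *Kcnf1* stands at 54.4 to 66.8 CPM in red and 2.02 to 3.65 CPM in blue.

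Of the 6 voltage-gated calcium channel genes, edgeR called an auxiliary subunit and neither pore gene, of which 1 had an unadjusted p under 0.05 and 1, *Cacna1d*, was called by DESeq2 (1.87, adjusted p = 0.00395). *Cacna2d2*, an α2δ subunit that raises the number of channels at the membrane (chromosome 9, 107399612 to 107529343, plus strand), had 1.33, 1.59 and 1.37 CPM in the libraries labelled *Rag1Cre-Nfatc1fl/fl*, against 3.23, 3.34 and 3.56 CPM in control libraries. The log2 fold change was -1.23 (SE 0.208, adjusted p = 0.00505, edgeR). The call rests on 90 reads in the libraries labelled *Rag1Cre-Nfatc1fl/fl* and 231 in control libraries, all in exons, and the adjusted p was 0.0162 to 0.0285 without any of the controls or replicate 1 or 2 labelled *Rag1Cre-Nfatc1fl/fl*. *Cacna2d4*, *Cacnb1* and *Cacnb3*, further auxiliary subunits, had log2 fold changes of -0.38, -0.26 and 0.27 and overlapped between the groups. Both pore genes of the set were low. *Cacna1d*, the L-type pore Cav1.3, had 1.88, 2.91 and 2.06 CPM in the libraries labelled *Rag1Cre-Nfatc1fl/fl*, against 0.904, 0.792 and 0.178 CPM in control libraries, a difference that its choice by level favours (1.86, adjusted p = 0.03). *Cacna1a*, the P/Q-type pore, had 2.57, 3.37 and 2.64 CPM in the libraries labelled *Rag1Cre-Nfatc1fl/fl*, against 2.11, 2.2 and 2.63 CPM in control libraries (0.31, adjusted p = 0.342). *Cacna1d* overlaps *Dcp1a* and *Chdh* on the other strand.

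No inward rectifier, two-pore or auxiliary potassium channel gene passed (edgeR). Unadjusted p-values were under 0.05 in 0 of 1, 3 of 4 and 2 of 5 of them, and DESeq2 called 0, 2 and 0. *Kcnj10*, the inward rectifier Kir4.1, had 3.53, 2.96 and 11.3 CPM in the libraries labelled *Rag1Cre-Nfatc1fl/fl*, against 4.09, 0.704 and 0.979 CPM in control libraries (1.61, SE 0.737, adjusted p = 0.152, edgeR). It was high in replicate 3 of the first group and replicate 1 of the second, the libraries in which the summed level of 14 macrophage and dendritic cell markers was highest as well, as given beside *Trpm4*. Of the 14 markers 11 were tested and 0 called (edgeR; 3 at an unadjusted p under 0.05, 0 by DESeq2), at adjusted p-values of 0.0788 to 0.873, and all had at least 1 read. In all, 7 of the 51 members (13.7%) and 11.5% of all tested genes had the highest value of each group in these 2 libraries: *Kcnj10*, *Kcna2*, *Kcnk6*, *P2rx1*, *P2rx4*, *Trpm2* and the called *Trpm4*. The summed level of 6 erythroid markers peaked there too (16.1, 7.79 and 52.4 CPM in the libraries labelled *Rag1Cre-Nfatc1fl/fl*, against 28.9, 3.96 and 19.3 CPM in control libraries). That of 9 markers of αβ double-positive thymocytes was highest in replicate 3 of the first group (1385, 1145 and 1927 CPM), but alike in control libraries (1625, 1615 and 1628 CPM). Most of this sum came from *Trbc1*, *Trbc2* and *Dntt*. *Cd8a* varied more (69.3, 31.4 and 136 CPM in the first group, against 55.1, 50.8 and 45.2 CPM in control libraries). *Rag1* did likewise (83, 33.2 and 130 CPM against 84, 68.1 and 67.5 CPM). *Trac* did not (45.2, 43.2 and 42.6 CPM against 29.2, 33.2 and 32.2 CPM), with 0% of its reads in exons. The part of any of these cell types in the values of the 7 genes was not tested. The two-pore channels, which pass background potassium currents, had log2 fold changes above 0: *Kcnk1* 0.87 (adjusted p = 0.0193), *Kcnk5* 0.25 (0.129), *Kcnk6* 0.76 (0.203) and *Kcnk7* 2.11 (0.0126; on exon reads 2.19, adjusted p = 0.00824). *Kcnk7* had 1.93, 1.37 and 2.06 CPM in the libraries labelled *Rag1Cre-Nfatc1fl/fl*, against 0.301, 0.704 and 0.223 CPM in control libraries, and was at 1 CPM only in the first group. Its choice by level therefore favours its difference, on all reads and on exon reads. *Kcnab2* had 360, 365 and 292 CPM in the libraries labelled *Rag1Cre-Nfatc1fl/fl*, against 350, 351 and 347 CPM in control libraries (-0.04, adjusted p = 0.785). The other auxiliary genes *Kcnmb1*, *Kcnip1*, *Kcnmb4* and *Kcnab3* had log2 fold changes between -0.43 and 0.81.

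How well the reads report mature channel RNA differed between members. At least 90% of the reads lay in exons in 36 members, 50% to 90% in 7 and under 50% in 8. Of these, 7 were *Kcnip1* and *Kcnh6* (0% each), *P2rx3* (1.24%), *Trpv6* (25.5%), *Trpm2* (32.2%), *Kcnn2* (36.3%) and *Scn11a* (43.1%). All reads of *Kcnip1* (277 in the libraries labelled *Rag1Cre-Nfatc1fl/fl*, 203 in control libraries) and of *Kcnh6* (161 in the libraries labelled *Rag1Cre-Nfatc1fl/fl*, 205 in control libraries) were intronic, so these members were detected through intronic reads alone. Had the level been set on exon reads, 45 of the 51 would have met it. Of the 36 members with at least 90% exon reads 5 were higher and 3 lower, with a median log2 fold change of 0.17. Reads were shared with other genes mainly in *Trpm2* (36.4% unique) and *Kcnmb4* (58.9% unique), whose values are uncertain.

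**Figure D4:**
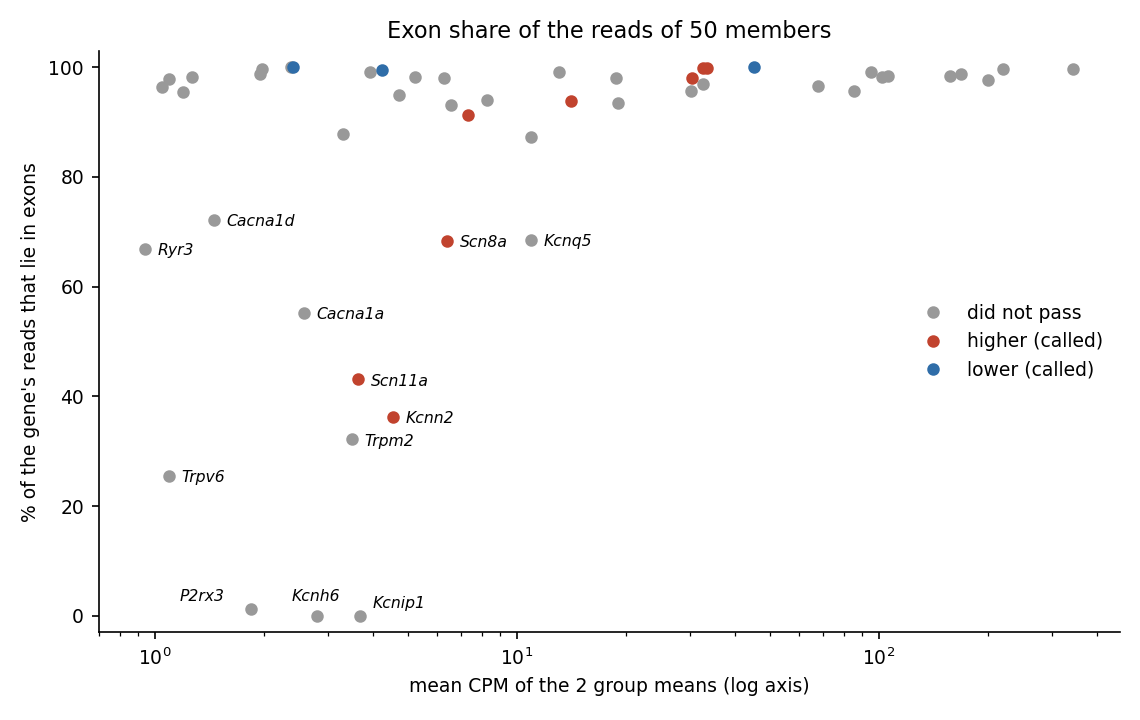
Share of reads in exons (y axis, %) of 50 members against their level (x axis, mean of both group means in CPM, log), with called genes in red (higher) and blue (lower). Members above 20 CPM all lie above 90%, and the 7 plotted members under 50% lie between 1 and 10 CPM.

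Replicate 3 labelled *Rag1Cre-Nfatc1fl/fl* was lower than both other libraries of its group in 24 members and higher in 15. Its log2 ratio to the mean of replicates 1 and 2 was -1.05 for *Itpr1*, -0.93 for *Itpr2*, -0.85 for *Itpr3*, -0.6 for *Orai2* and -0.63 for *Stim2*, but -0.03 for *Stim1*, 0.07 for *Orai1* and 0.13 for *Orai3*. The median ratio was -0.22 over the 31 members with exons of 5000 bases or more and -0.03 over the 20 shorter ones. Over all tested genes the median in 4 equal bins of exon length was 0.27, 0.08, -0.08 and -0.28 from the shortest to the longest, so long genes were lower in this library over the whole table as well. Spearman's rho with exon length was -0.24 across the 51 members and -0.43 across all tested genes, as a description across genes, which share the library. With the trend with exon length removed in each library, an alternative chosen after the data had been seen, 15 members were called, 12 higher and 3 lower, of which 10 were among the 11. *Itpr1* (1.03, adjusted p = 0.00118, edgeR), *Ryr3* (1.73, adjusted p = 0.00918) and *P2rx7* (-0.64, adjusted p = 0.00798) were among those gained, and *Cacna2d2* was lost (-1.01, adjusted p = 0.0125). The choice of *Ryr3* by level favours its difference here as well.

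**Figure D5:**
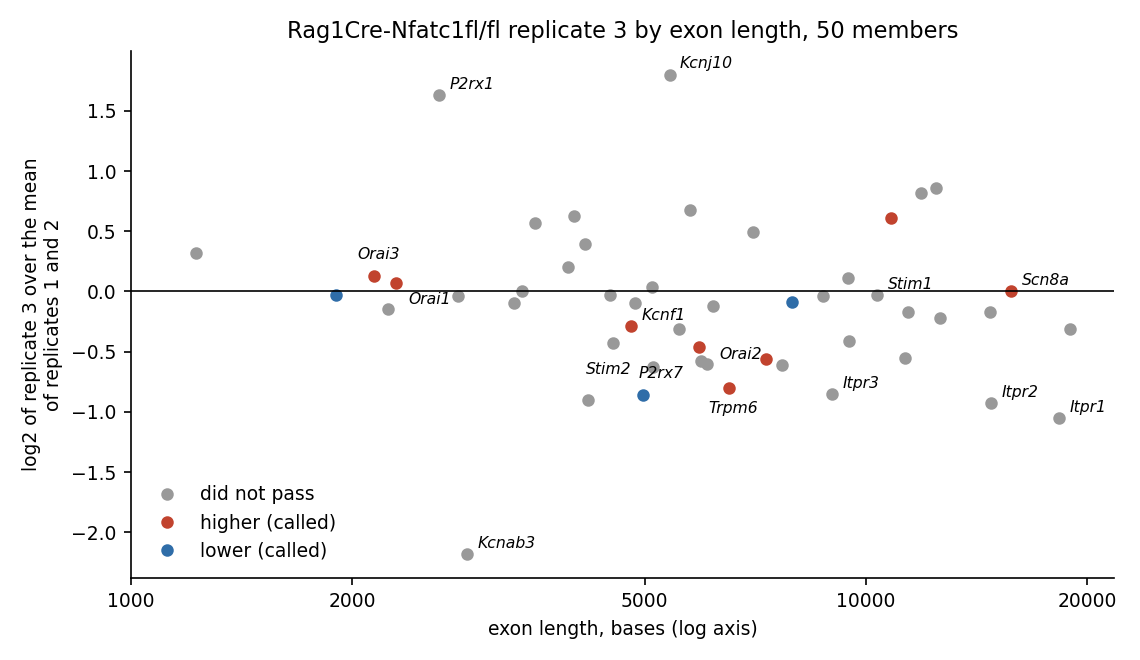
Log2 ratio of replicate 3 labelled *Rag1Cre-Nfatc1fl/fl* to the mean of replicates 1 and 2 (y axis) against exon length in bases (x axis, log) for 50 members. *Itpr1*, *Itpr2* and *Itpr3* lie near -1 at 18319, 14802 and 8990 bases, but *Ryr3* (18977 bases) lies at -0.31 and *Scn8a* (15766 bases) at 0. *Orai1* and *Orai3* lie near 0 at the short end, and *Kcnj10*, *P2rx1* and *Kcnab3* apart from the rest.

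Near the level limit, the third highest CPM (gene reads over the column sum) was 1.03 for *P2rx1*, 1.06 for *Ryr3* and 1.15 for *Trpv6* inside it, and 0.839 for *Kcnh4* and 0.644 for *Trpm3* outside it. Of the 125 genes with a matching name below the limit, 38 had no read, 11 were tested and 1 was called: *Trpa1*, an irritant-sensing channel chosen for mention after its values were seen, had 0.0459, 0.0911 and 0.106 CPM in the libraries labelled *Rag1Cre-Nfatc1fl/fl*, against 0.56, 0.528 and 0.445 CPM in control libraries (-2.59, adjusted p = 0.00851, edgeR).

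The genes that work with these channels were read off the same fit. Of 105 tested genes on 6 lists 5 were higher, 8 lower and 92 did not pass, beside 6.47% higher and 3.51% lower of all tested genes, and their median log2 fold change was -0.03. The balance turned with the scaling: 3 were higher and 12 lower with library size only, and 11 higher and 5 lower with the trend with exon length removed. Of 17 pump and exchanger genes 3 were higher and 1 lower. *Fxyd5*, a regulatory subunit of the sodium-potassium pump, had 315, 373 and 334 CPM in the libraries labelled *Rag1Cre-Nfatc1fl/fl*, against 137, 150 and 139 CPM in control libraries (1.26, SE 0.095, adjusted p = 0.000127, edgeR). *Atp1b1*, a β subunit of the pump, was lower (-0.72, SE 0.085, adjusted p = 0.00108), a call that was lost without control replicate 3 (adjusted p = 0.0104).

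Of 16 regulators of stores and store-operated entry 2 were higher and 1 lower. *Grina* was higher (0.56, SE 0.098, adjusted p = 0.00575, edgeR). *Cracr2a*, which binds ORAI1 and STIM1, was lower (-0.75, adjusted p = 0.00852). Of 12 genes of IP3 supply *Plcd3*, a phospholipase C, was lower (-2.13, adjusted p = 0.00613), with 12.2% of its reads in exons. *Plcg1*, the phospholipase C of the T cell receptor, had 168 ± 39.5 CPM in the libraries labelled *Rag1Cre-Nfatc1fl/fl* and 187 ± 10.3 CPM in control libraries (SD, n = 3 each) and did not pass. Of 14 calmodulin and CaM kinase genes 2 were lower, *Camk2d* with 74.8, 67.1 and 59.1 CPM in the libraries labelled *Rag1Cre-Nfatc1fl/fl*, against 123, 126 and 130 CPM in control libraries (-0.91, SE 0.103, adjusted p = 0.000858), and *Camk2a* (-0.83, adjusted p = 0.0015). None of 10 tested genes of mitochondrial calcium uptake passed (edgeR; 3 had an unadjusted p under 0.05, and DESeq2 called 0). Of 36 other channel genes 3 were lower: *Gria3*, a glutamate receptor subunit (-1.24, adjusted p = 0.00127), the calcium-activated scramblase *Ano6* (-0.65, adjusted p = 0.00532) and *Clic4* (-0.69, adjusted p = 0.00694). *Camk2d* and *Gria3* stayed past the threshold without any single library, as did *Fxyd5*. Other calls of these lists were lost without single libraries: those of *Grina* and *Clic4* without any control or replicate 1 or 2 labelled *Rag1Cre-Nfatc1fl/fl* (highest adjusted p 0.0381 and 0.0365), those of *Cracr2a* and *Ano6* without any control or replicate 2 (0.0438 and 0.033), that of *Plcd3* without control replicate 1 or 2 or replicate 1 or 2 labelled *Rag1Cre-Nfatc1fl/fl* (0.0281), and that of *Camk2a* without control replicate 1 or 3 (0.0119).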

How the data were processed

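Poly(A) RNA of γδ thymocytes from 3 *Rag1Cre-Nfatc1fl/fl* and 3 *Nfatc1fl/fl* control samples was sequenced. According to the study's methods, reads were trimmed with cutadapt, aligned to GRCm38 with STAR and counted per gene; whether strand was used is not stated. The deposited tables hold raw counts per gene, separately for gene, exon, exon-exon and intron reads, and a TPM column, which was recomputed from total exon reads and exon length (largest difference under 1e-06). Gene reads per library were 20734771 to 22638531, so genes with few reads are imprecise.

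Total gene reads were tested with edgeR 4.0.16 (R 4.3.3; TMM, filterByExpr, quasi-likelihood, genotype only, Benjamini-Hochberg over 13185 genes) at an adjusted p under 0.01 and a log2 fold change beyond 0.5, the 2 thresholds of the study's methods. SE are those of the fit, whose common biological coefficient of variation was 0.154. Alternatives were other scalings, no filter, DESeq2 1.42.0, limma 3.58.1 (voom, and log2 TPM with pseudocounts of 1 and 0.1), unique or exon reads, omission of single libraries, a block for replicate number and a wider threshold. Removal of the trend with exon length and the level limit on exon reads were added after the data had been seen. Promoters came from RefSeq (GRCm38.p6).

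Members, gene lists and markers were chosen with earlier results of these data known. The rule for named genes took all called members, all members of the store-operated entry, endoplasmic reticulum release and P2X families, the 10 members with the highest mean TPM, those at 1 CPM through only 1 group, the 3 nearest to the limit on each side, and up to 4 called genes of each pathway list. Other genes named were chosen after their values were seen. A few genes of the set and of the lists are counted but not reported here by name, and figures leave them out.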

Additional observations from a re-analysis of the deposited data

How the results depend on the processing

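Over all tested genes, 1316 were called, 1992 with DESeq2, 524 and 498 with limma on log2 TPM at pseudocounts of 1 and 0.1, and 3073 at an adjusted p under 0.05 without a fold limit. Leaving out 1 library gave 488 to 1796. Of the 51 members, 11 were called, 7 on log2 TPM with a pseudocount of 1, 17 at an adjusted p under 0.05, and 6 to 16 with 1 library left out. Of the pathway genes, 13 were called, 4 and 2 on log2 TPM with pseudocounts of 1 and 0.1, 35 at an adjusted p under 0.05, and 5 to 18 with 1 library left out. With the level limit on exon reads there were 45 members. Of the log2 fold changes of 45 named genes, 676 values under an alternative kept direction and side of the threshold, 101 lost and 17 gained the call, and 11 turned direction. These were *P2rx1* without replicate 3 labelled *Rag1Cre-Nfatc1fl/fl* (-0.36) and *Kcnab2* without it (0.06), *P2rx3* with library size only (-0.04) and without control replicate 1 (-0.08), *Itpr3* on log2 TPM (-0.04 and -0.05 at pseudocounts of 1 and 0.1), and, with the trend with exon length removed, *Itpr2* (0.02), *Stim1* (0.1), *Kcnab2* (0.12), *Kcnn4* (0.05) and *Trpc4ap* (0.01). With 1 library left out, *P2rx1* ranged from -0.36 to 0.88, *P2rx3* from -0.08 to 0.16 and *Kcnab2* from -0.1 to 0.06. None of the 11 was called, and the cause was not tested. Whether replicate numbers pair the samples could not be decided with 3 libraries per group. The correlations of same-numbered deviations were 0.026, 0.183 and 0.005, and those of differently numbered ones -0.15 to 0.094. With the replicate number as a block, 1171 genes, 10 members (9 of them among the 11) and 13 pathway genes were called, *Orai1* (0.53, adjusted p = 0.0105, edgeR) and *Cacna2d2* (-1.23, adjusted p = 0.0161) no longer. Depth limits members with few reads: *Cacna2d2* had 90 reads in the libraries labelled *Rag1Cre-Nfatc1fl/fl* and 231 in control libraries.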
